A study of Mus musculus with 4 samples.

Results

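Acyl-CoA thioesterases cut acyl-coenzyme A esters into a free acid and coenzyme A, and in mice the genes named Acot encode a set of these enzymes for different cell compartments. The account covers 9 of them, chosen by symbol from a table of 52636 genes: Acot1, Acot2, Acot3 and Acot4, which lie next to each other on chromosome 12, and Acot7, Acot8, Acot9, Acot10 and Acot13, which lie elsewhere. The set was put together when the difference between the groups was already known, so that its own values in this contrast are a description and carry no test. RNA came from mouse Hoxb8 cells, a cell line of the kind used as a model of myeloid progenitors. The EV group was Hoxb8 cells with an empty vector (2 libraries) and the R882H group was Hoxb8 cells expressing DNMT3AR882H (2 libraries), a form of the de novo DNA methyltransferase DNMT3A found in acute myeloid leukaemia. The sources used here do not give the mouse strain, the promoter of the vector, the number of clones or the age of the cultures, and nothing says that the replicates were separate cultures, so that any p-value measures only the spread between these samples.

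The enzymes hold the balance between activated and free fatty acids together with the acyl-CoA synthetases, which run the opposite reaction. The cluster genes arose by duplication and their products work in different places: ACOT1 in the cytosol, ACOT2 in the mitochondrial matrix, ACOT3 and ACOT4 in peroxisomes. In mouse liver they are textbook targets of the fatty acid receptor PPAR alpha and rise on fasting. The other members belong to a separate protein fold family, in which ACOT7 is cytosolic and abundant in brain, ACOT8 is peroxisomal, ACOT9 and ACOT10 are mitochondrial and ACOT13 is found at mitochondria.

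Each library held 5470330 to 5921985 counts of 3′ tags, in which each read marks the end of a transcript, so that CPM, counts scaled to a common library size, compare genes without a correction for length. Of 11444 genes with enough counts, 38.8% passed an adjusted p of 0.05 in edgeR, 19.3% higher and 19.4% lower in R882H. Without R882H replicate 1 the number of lower genes fell from 2222 to 1446, and DESeq2 called 1401 higher genes against 2213. Dnmt3a itself had 264 and 270 counts in EV and 254 and 239 in R882H, which does not check the labels, since tags at the 3′ end need not cover a transgene. All 13 myeloid progenitor markers were detected. Their summed level was 3900 to 3932 CPM for EV and 5926 to 5938 CPM for R882H, with 5 genes called higher (among them Mpo, 5.25 ± 0.17 on the log2 scale), 2 lower (Cebpa, −0.74 ± 0.14, and Hoxb8, −1.92 ± 0.45) and 6 not called. Hoxb8 had few counts, 25 and 44 in EV and 15 and 4 in R882H. As with Dnmt3a, these tags need not cover a transgene, so the level of any introduced Hoxb8 is not known. The summed level of 6 megakaryocyte markers was 873 to 1060 CPM for EV and 22.5 to 26.9 CPM for R882H, a sum made up in EV mostly of Pf4, which was lower with Ppbp, while Itga2b was higher (1.35 ± 0.38, edgeR adjusted p = 0.00466) and Gp9 was not called (0.41 ± 0.35). Summed B lineage markers (9 of 9 detected) had 548 to 567 CPM for EV and 1664 to 1676 CPM for R882H, and mast cell and basophil markers (4 of 7 detected; Fcer1a, Tpsb2 and Mcpt4 at 0) had 42.2 to 44.1 CPM for EV and 374.0 to 394 CPM for R882H. Erythroid markers (6 of 9 detected; Hba-a1 and Epor among those at 0) summed to 10.9 and 14.3 CPM in EV and 8.78 and 9.87 CPM in R882H, and T lineage markers (2 of 7; Cd3e, Cd3g, Cd4, Cd8a and Bcl11b at 0) to 6.60 and 8.30 CPM in EV and 1.17 and 1.05 CPM in R882H, nearly all of it Lck (−2.83 ± 0.43, edgeR adjusted p = 2.23e-06). Of 6 stromal and epithelial markers Epcam alone had a count. The Y-linked gene Ddx3y had 0 and 2 counts in EV and 65 and 41 in R882H, Eif2s3y had 1, 0, 26 and 29 in the same order, and Xist had 1463, 1438, 1880 and 1509. The labels do not say whether both groups descend from the same cells, so the DNMT3A variant and the origin of the cells cannot be told apart, and the part of the shift in lineage markers in the Acot values was not tested.

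The 4 cluster genes lay on the forward strand within 72.5 kb, in the order Acot2, Acot1, Acot4, Acot3, with Acot5 and Acot6 following downstream. The coding sequences of Acot1 and Acot2 were 95.3% identical over 1236 aligned bases, while Acot3 was 83.9% identical to either and Acot4 74.2% to 75.1% identical to the other members of the cluster. Such likeness could let reads of a gene be counted for its neighbour, so the last 500 bases of each main transcript, where 3′ tags should fall, were searched. The search was for stretches of 75 bases (the shortest read length in the labels) that occur in transcripts of any other gene. None of the 426 windows of Acot1, Acot2, Acot3 or Acot4 did, and likewise none of those of Acot7, Acot8 or Acot13. Only Acot9 (24 windows, 5.63%) and Acot10 (26 windows, 6.10%) shared windows among the members, with each other. Their coding sequences were 97.2% identical, and Acot10 has a single exon against 15 in Acot9. Alignments with mismatches and the ends of other transcripts of these genes were not searched, and the positions of the reads were not seen.

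The sequences upstream of the cluster genes are shown because these 4 genes moved in the same direction. Each is the 250 bases before the RefSeq transcript start in GRCm38.p6 (mm10), 5′ to 3′ on the forward strand, from chr12:84009252-84009501 for Acot1, chr12:83987611-83987860 for Acot2, chr12:84051894-84052143 for Acot3 and chr12:84038129-84038378 for Acot4. Capitals mark matches, on either strand, to 3 core promoter motifs: CCAAT, the GC box GGGCGG and the TATA box TATAAA.
Acot1: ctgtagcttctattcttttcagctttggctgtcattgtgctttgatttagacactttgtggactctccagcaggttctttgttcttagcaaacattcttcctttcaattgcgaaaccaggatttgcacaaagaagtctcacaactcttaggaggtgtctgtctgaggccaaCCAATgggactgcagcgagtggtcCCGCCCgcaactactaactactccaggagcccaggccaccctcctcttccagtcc
Acot2: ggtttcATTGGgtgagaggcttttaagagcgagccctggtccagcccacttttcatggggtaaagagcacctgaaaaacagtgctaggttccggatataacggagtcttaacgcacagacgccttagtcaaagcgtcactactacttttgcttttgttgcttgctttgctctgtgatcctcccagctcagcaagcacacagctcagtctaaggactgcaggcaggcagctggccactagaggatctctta
Acot3: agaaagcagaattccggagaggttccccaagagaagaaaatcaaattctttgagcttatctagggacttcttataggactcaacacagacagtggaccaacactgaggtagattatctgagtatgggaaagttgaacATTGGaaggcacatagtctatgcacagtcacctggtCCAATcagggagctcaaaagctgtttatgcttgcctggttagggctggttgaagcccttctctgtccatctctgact
Acot4: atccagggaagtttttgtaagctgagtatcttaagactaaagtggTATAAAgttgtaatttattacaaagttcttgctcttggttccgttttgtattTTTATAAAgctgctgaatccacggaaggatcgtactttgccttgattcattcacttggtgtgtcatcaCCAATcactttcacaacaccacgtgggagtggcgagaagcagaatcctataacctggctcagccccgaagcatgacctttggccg
A CCAAT match was present in each of the 4, at 79 bases before the start in Acot1, 244 in Acot2, 113 and 77 in Acot3 and 85 in Acot4, and 34.5% of 27025 promoters of the same length hold such a match. The GC box (32.9% of promoters) was found in Acot1 alone of the 4 and TATAAA (13.0% of promoters) in Acot4 alone, where its matches at 153 and 151 bases before the start overlap on opposite strands. A direct repeat of AGGNCA with 1 free base between the copies, the kind of element bound by PPAR and its partner RXR, was found in 0.333% of promoters, and its letters were not in these windows. The 4 windows held 4 (Acot1), 6 (Acot2), 1 (Acot3) and 7 (Acot4) CpG dinucleotides, beside a median of 6 over all promoters. The promoter table held 8 of the 9 members, all but Acot13.

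The chromosome 12 cluster had lower levels in R882H cells at each of its 4 members. Summed over the 4 genes, the level was 768 and 741 CPM in the 2 EV libraries against 203 and 223 CPM in the 2 R882H libraries, a 3.54-fold lower mean. All 4 of these genes were lower in R882H in the fit over all genes, where 19.4% of tested genes were lower, and all 4 were at least 2-fold lower, beside 6.30% of tested genes called and that much lower and 7.82% that much higher, but the genes were picked with this contrast known and nothing is read from the count. In bulk RNA, fewer cells that express a gene and less RNA per cell cannot be told apart.

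Acot1, the cytosolic long-chain enzyme (ENSMUSG00000072949, mm10 chromosome 12, 84009490 to 84018371), was the most abundant member. It had 2630 and 2799 counts in EV replicates 1 and 2 and 937 and 887 counts in R882H replicates 1 and 2, or 488 ± 8.31 CPM (EV) and 156 ± 0.761 CPM (R882H) (means ± SD, n = 2 libraries per group, here and below). The groups lay far apart and the replicates within each close together, and the log2 fold change of R882H over EV was −1.64 ± 0.13 (standard error from the fit). These groups did not overlap, which holds with R882H lower for 33.9% of all tested genes. In EV cells 97.5% of the tested genes had a lower level than Acot1.

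Acot2, the mitochondrial matrix enzyme (ENSMUSG00000021226, chromosome 12, 83987861 to 83993873), had 1038 and 854 counts in EV and 208 and 293 in R882H. Its level was 171 ± 28.0 CPM (EV) and 43.1 ± 11.8 CPM (R882H), a log2 fold change of −1.99 ± 0.16. The replicates of both groups differed more than those of Acot1, yet the groups did not overlap. Acot1 counts were 2.53 and 3.28 times those of Acot2 in the 2 EV libraries against 4.51 and 3.03 times in the 2 R882H libraries, so the ratio of these near-identical neighbours had overlapping ranges in the groups.

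Acot3, a peroxisomal long-chain enzyme (ENSMUSG00000021228, chromosome 12, 84052144 to 84060402), had the lowest fold change among the members. It had 479 and 493 counts in EV and 58 and 84 in R882H, a level of 87.4 ± 0.581 CPM (EV) and 12.2 ± 3.56 CPM (R882H). The log2 fold change was −2.84 ± 0.17, a 7.16-fold lower level. Acot1 counts were 5.49 and 5.68 times those of Acot3 in EV and 16.2 and 10.6 times in R882H, so the ranges of this ratio did not overlap. The same contrast chose the genes, and the difference between them carries no test.

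Acot4, a peroxisomal enzyme that in mouse acts on short dicarboxylic esters such as succinyl-CoA (ENSMUSG00000052392, chromosome 12, 84038379 to 84048601), was the least abundant cluster gene. It had 40 and 50 counts in EV and 10 and 8 in R882H, or 8.08 ± 1.05 CPM (EV) and 1.54 ± 0.190 CPM (R882H) (log2 fold change −2.38 ± 0.38). With so few counts the ratio of R882H over EV was 0.191 with an exact 95% interval of 0.108 to 0.318, which covers counting error only. Exons of Acot4, like those of Acot3, overlap those of an antisense RNA inside the cluster, described below.

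Set beside all tested genes, 3.06% had a lower log2 fold change than Acot1, 2.28% than Acot2, 1.21% than Acot3 and 1.64% than Acot4, and the median of all tested genes was 0.01. Leaving out any library kept the direction of these 4 genes and their side of the threshold. Their log2 fold changes under all alternatives ran from −1.67 to −1.62 for Acot1, −2.28 to −1.72 for Acot2, −3.15 to −2.55 for Acot3 and −2.51 to −2.24 for Acot4.

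**Figure D1:**
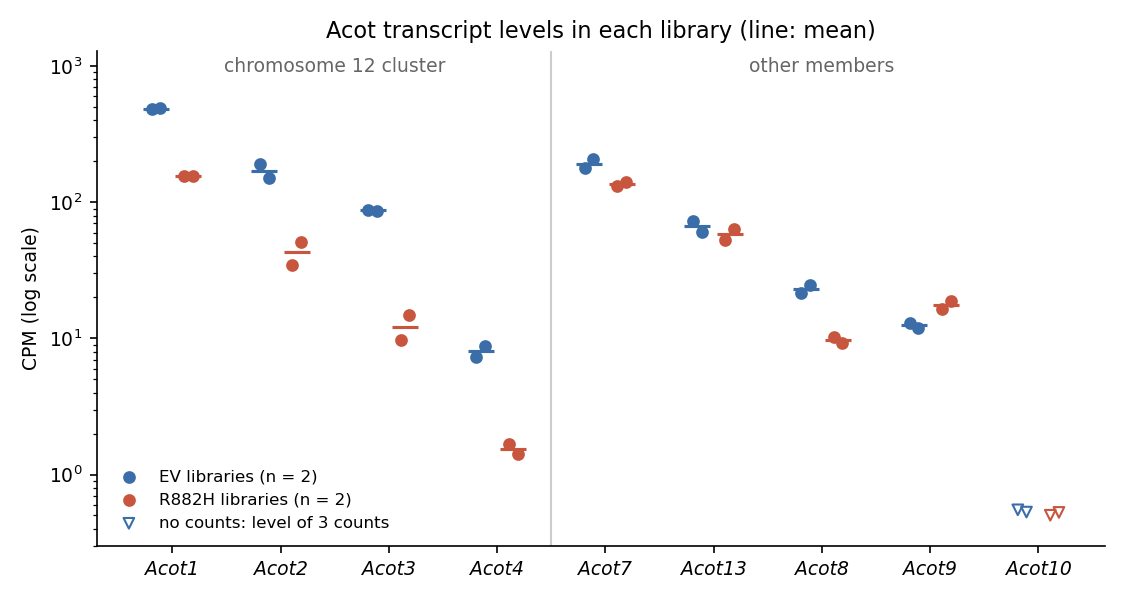
Level of each Acot gene in CPM on a log axis, with a point per library (blue EV, red R882H, n = 2 each), a line at the group mean and, for Acot10, open triangles at the level of 3 counts. The 4 cluster genes on the left sit lower in both R882H libraries, from 488 to 156 CPM for Acot1, whereas Acot13 overlaps between groups and Acot9 sits higher in R882H.

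Of the 5 members outside the cluster, 4 had enough counts to be tested, of which 2 were lower in R882H, none was higher and 2 did not pass the threshold, beside 38.8% of all genes called. Their summed level was 286 and 304 CPM in EV and 210 and 233 CPM in R882H.

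Acot7, the cytosolic enzyme of long-chain esters including arachidonoyl-CoA (ENSMUSG00000028937, chromosome 4, 152178134 to 152271855), was the most abundant of them. It had 975 and 1171 counts in EV and 782 and 800 in R882H, or 193 ± 19.7 CPM (EV) and 136 ± 6.78 CPM (R882H) (log2 fold change −0.51 ± 0.13). The groups did not overlap, but without R882H replicate 1 Acot7 no longer passed the threshold (log2 fold change −0.44, adjusted p = 0.0940 in edgeR), while it passed under the other alternatives.

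Acot13, a small thioesterase of mitochondria (ENSMUSG00000006717, chromosome 13, 24817948 to 24831540), had 395 and 343 counts in EV and 317 and 364 in R882H. Its level was 66.5 ± 8.41 CPM (EV) and 58.5 ± 7.68 CPM (R882H), and the ranges of the groups overlapped (log2 fold change −0.19 ± 0.14, not called). Leaving out single libraries and changing the other settings moved it between −0.31 and −0.05.

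Acot9, a mitochondrial enzyme (ENSMUSG00000025287, chromosome X, 155262443 to 155297654), was the sole tested member with a positive log2 fold change. It had 71 and 68 counts in EV and 98 and 108 in R882H, or 12.5 ± 0.720 CPM (EV) and 17.7 ± 1.81 CPM (R882H). The groups did not overlap, which holds for 69.1% of all tested genes. The log2 fold change of 0.50 ± 0.21 lay just outside the threshold (edgeR adjusted p = 0.05355) and did not pass it under any alternative. Acot10, its single-exon relative (ENSMUSG00000047565, chromosome 15, 20665214 to 20666750), had no counts in any library, which allows up to 3 counts or 0.502 to 0.550 CPM per library.

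Acot8, the peroxisomal enzyme of broad substrate range (ENSMUSG00000017307, chromosome 2, 164792765 to 164804882, reverse strand), had 118 and 141 counts in EV and 61 and 53 in R882H, or 23.3 ± 2.30 CPM (EV) and 9.76 ± 0.639 CPM (R882H). Its log2 fold change was −1.25 ± 0.20, with the limit that its 3′ end overlaps another gene. The sorting nexin gene Snx21, on the opposite strand (chromosome 2, 164785823 to 164793816), shares 246 exon bases with it, of which 243 lie in the last 500 bases of the Acot8 transcript and none in the last 500 bases of the Snx21 transcript. Snx21 had 119, 146, 65 and 58 counts in the same 4 libraries, between 1 and 5 more than Acot8 in each. No source used here gives the strand setting of the authors' counting, so reads in the shared stretch cannot be told apart by strand, and how much of either count belongs to Acot8 was not tested.

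**Figure D2:**
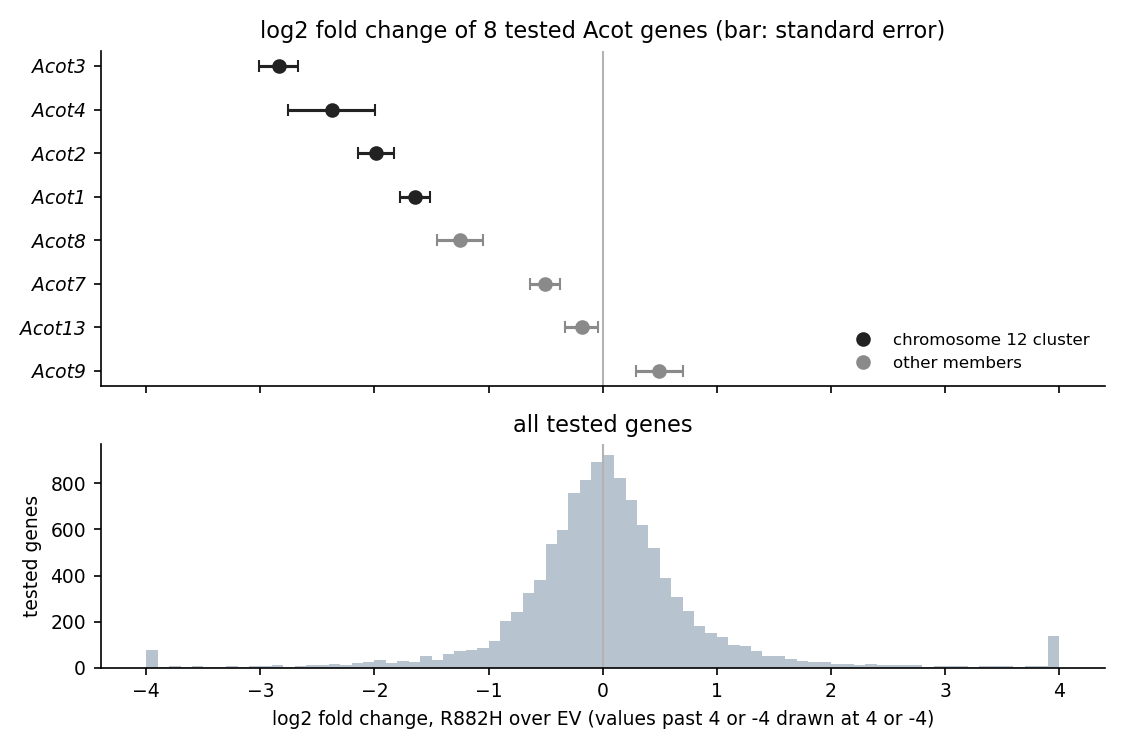
Upper panel: log2 fold change of R882H over EV with its standard error for the 8 tested Acot genes, cluster genes in black and the others in grey. Lower panel: the log2 fold changes of all 11444 tested genes on the same axis, with values beyond the axis drawn at its edge. The cluster genes run from −2.84 to −1.64, in the left tail of the distribution, and Acot9 alone lies above 0.

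The make-up of the family differed between the groups. The cluster genes supplied 72.9% and 70.9% of the Acot counts in the 2 EV libraries against 49.1% and 49.0% in the 2 R882H libraries. Acot1 held 45.8% and 47.3% in EV and 37.9% and 34.2% in R882H, and Acot7 held 17.0% and 19.8% in EV and 31.7% and 30.8% in R882H. Acot7 made up a larger share in R882H although its own level was lower there. The order of levels in EV was Acot1, then Acot7 and Acot2, whose libraries overlapped (179 to 207 CPM and 151 to 190 CPM), then Acot3, Acot13, Acot8, Acot9 and Acot4. In R882H it was Acot1, Acot7, Acot13 and Acot2, which did not overlap, then Acot9, then Acot3 and Acot8, which did (9.70 to 14.7 CPM and 9.30 to 10.2 CPM), then Acot4.

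**Figure D3:**
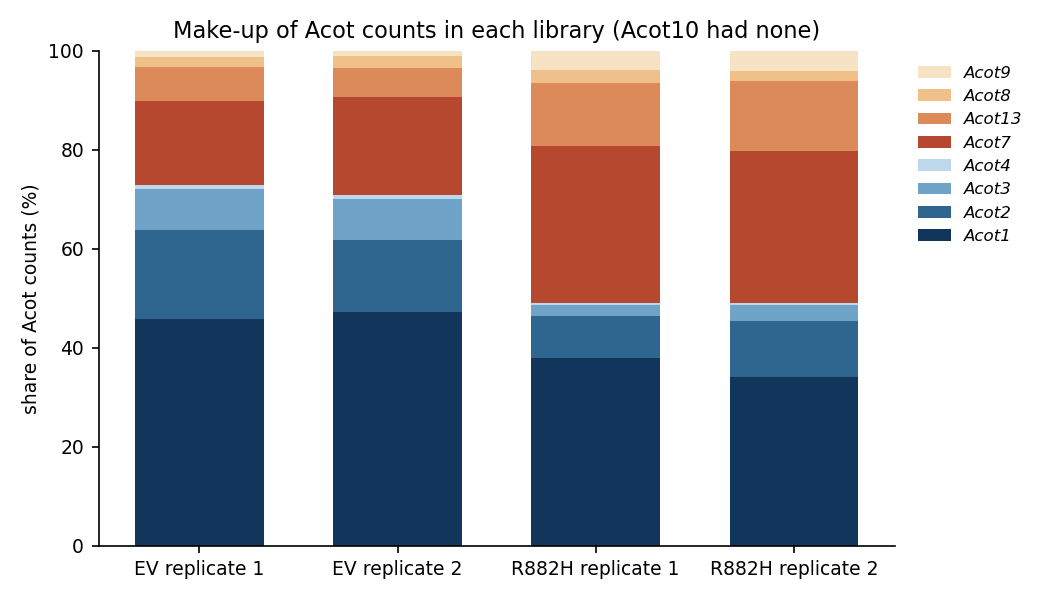
Share of each gene in the Acot counts of each library, in percent, with the chromosome 12 cluster in blue and the other members in red to yellow. The blue part shrinks from 72.9% and 70.9% in the EV libraries to 49.1% and 49.0% in the R882H libraries.

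The remaining Acot genes of the mouse were scarce. Acot5, a peroxisomal gene of the same cluster, and Acot12, a cytosolic acetyl-CoA hydrolase, had no counts in any library. Acot6, the last gene of the cluster (chromosome 12, 84100654 to 84111349), had 0 and 3 counts in EV and 6 and 11 in R882H, too few to pass the filter on low counts. It was called higher with no such filter (edgeR adjusted p = 0.0437) and without EV replicate 2 (adjusted p = 0.0376), where the remaining EV library has no count, and not called without EV replicate 1 (adjusted p = 0.285). The ratio of R882H over EV was 5.40 with an exact 95% interval of 1.56 to 28.8, which points the opposite way from the 4 other counted genes of the cluster. Acot11, the thioesterase of brown fat that carries a START lipid-binding domain, had 16 and 33 counts in EV and 16 and 10 in R882H (−0.98 ± 0.43 on the log2 scale, edgeR adjusted p = 0.0689). It passed the threshold with EV replicate 1 (−1.39, adjusted p = 0.0273) left out, and its exons overlap those of Fam151a.

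The genes around the cluster were taken by position alone. Within 500 kb of the cluster lay 42 other annotated genes, 18 of them tested. Of these, 3 rose, 3 fell and 12 did not pass the threshold (median log2 fold change −0.16), beside 19.3% higher and 19.4% lower of all tested genes. The antisense RNA 4732463B04Rik, which lies inside the cluster (chromosome 12, 84039469 to 84053807, reverse strand), fell as well. It had 91 and 118 counts in EV and 20 and 28 in R882H (−2.18 ± 0.26 on the log2 scale, edgeR adjusted p = 2.47e-08). Its exons share 615 bases with those of Acot4 and 312 with those of Acot3. None of these bases lie in the last 500 bases of the transcript taken for either gene or for the antisense RNA. The ends of their other transcripts were not searched. The antisense RNA had more counts than Acot4 in every library. As the strand setting is not given, how reads in the shared stretches were counted was not tested.

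Outside the cluster the nearest tested genes differed less. Riox1, a histone and ribosome hydroxylase gene 34.9 kb upstream, had 809 and 905 counts in EV and 712 and 753 in R882H (−0.29 ± 0.13 on the log2 scale, edgeR adjusted p = 0.0736), and passed the threshold with EV replicate 1 (−0.35, adjusted p = 0.0381) left out. The antisense gene Gm26571 beside it (−0.54 ± 0.52, adjusted p = 0.441; 0.03 without R882H replicate 1) and the Notch regulator Numb 65.9 kb upstream (−0.28 ± 0.24, adjusted p = 0.376; 0.16 without EV replicate 2 and 0.02 without R882H replicate 2) did not pass it either. Downstream, the chromatin co-repressor gene Elmsan1, 88.8 kb from the cluster, was lower with 30 and 32 counts in EV and 23 and 10 in R882H (−0.98 ± 0.38, adjusted p = 0.0417). That call ended with EV replicate 1 (0.110), EV replicate 2 (0.141) or R882H replicate 2 (0.429, log2 fold change −0.52) left out and in DESeq2 (0.189), where brackets give adjusted p, and the log2 fold change was −1.64 without R882H replicate 1. The prostaglandin reductase gene Ptgr2, 225 kb downstream, was higher, with 256 and 221 counts in EV and 441 and 406 in R882H (0.76 ± 0.14, adjusted p = 5.41e-05), and its exons overlap another counted gene. The other called genes of the window, named after their values were seen, were Gm47484 (0.81 ± 0.15), Aldh6a1 (0.97 ± 0.28) and Entpd5 (−0.63 ± 0.20). Gm47484 (84313854 to 84317076) overlaps the span of Ptgr2 (84285232 to 84315832). It had 221 and 185 counts in EV and 385 and 363 in R882H. Whether the rises of Gm47484 and Ptgr2 rest on the same reads was not tested. Aldh6a1 lost its call with EV replicate 2 (0.0595) left out and in DESeq2 (0.0592), and Entpd5 with EV replicate 1 (0.0780) or R882H replicate 1 (0.111) left out and in DESeq2 (0.0922). The exons of Riox1, Gm26571, Gm47484 and Aldh6a1 also overlap those of another counted gene. Heatr4, the closest gene at 3.01 kb, had 4, 1, 1 and 1 counts and was not tested.

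**Figure D4:**
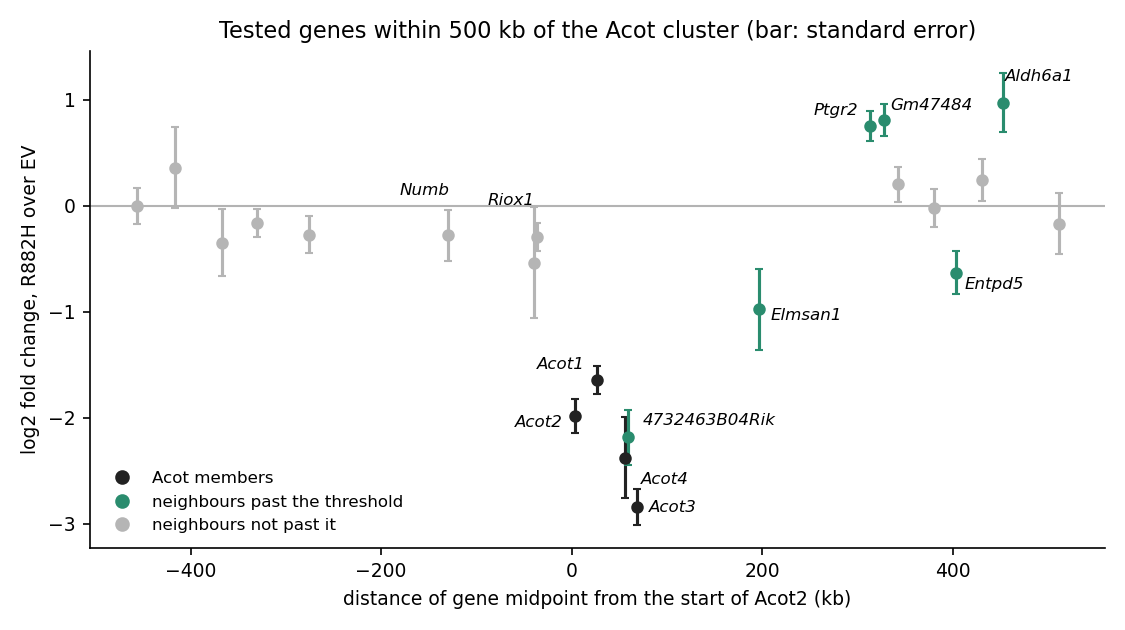
Log2 fold change of R882H over EV, with its standard error, of the tested genes within 500 kb of the Acot cluster against the distance of each gene's midpoint from the start of Acot2 in kb. The Acot genes (black) and the antisense RNA 4732463B04Rik lie between −2.84 and −1.64, and every other gene of the window lies between −0.98 and 0.97.

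Enzymes that share the acyl-CoA pool with the thioesterases moved in both directions. Of 13 thioesterase genes outside the set, 6 were tested, 1 rose and 3 fell (median log2 fold change −0.65, beside 0.01 over all tested genes, of which 38.8% passed the threshold). Fasn, the fatty acid synthase whose own thioesterase domain releases palmitate, had 363 ± 21.7 CPM (EV) and 206 ± 31.1 CPM (R882H) (−0.82 ± 0.14 on the log2 scale, edgeR adjusted p = 1.07e-05). The palmitoyl-protein thioesterase genes Ppt2 (−1.21 ± 0.22, adjusted p = 3.06e-05) and Ppt1 (−0.47 ± 0.13, adjusted p = 0.00449) fell, and Them6 rose (0.76 ± 0.18, adjusted p = 0.000782). There were 2 higher genes without EV replicate 1 (Them4 the second) and 2 without EV replicate 2 (Acot6 the second). In brackets after an omitted library or DESeq2, here and below, is the adjusted p without it or from that tool. Ppt1 lost its call with R882H replicate 1 (0.0957) or R882H replicate 2 (0.0619) left out. Them4 had 10, 1, 11 and 16 counts (1.21 ± 0.61, adjusted p = 0.118) and passed the threshold with EV replicate 1 (0.0199, log2 fold change 3.56) left out, but had 0.33 (0.739) with EV replicate 2 left out. Exons of Ppt1 and Them6 overlap those of another counted gene.

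Among the acyl-CoA synthetases, 12 of 23 were tested, 3 rose and none fell (median log2 fold change 0.06). The share called was 25%, under the 38.8% of all tested genes (19.3% higher and 19.4% lower). The mitochondrial acetyl-CoA synthetase gene Acss1 had 35 and 31 counts in EV and 207 and 224 in R882H (2.63 ± 0.21 on the log2 scale, edgeR adjusted p = 1.67e-12). Acsf2 rose by less (0.98 ± 0.30, adjusted p = 0.00903), and Acsbg1 rose from 2 and 1 counts in EV to 11 and 16 in R882H (adjusted p = 0.00140). Acsf2 lost its call with EV replicate 1 (0.0688) or R882H replicate 2 (0.209) left out and in DESeq2 (0.0802), and Acsbg1 with EV replicate 2 (0.0520) left out. Omitting R882H replicate 2 left 1 higher gene. The cytosolic acetyl-CoA synthetase gene Acss2 (−0.86 ± 0.38, adjusted p = 0.0727) passed the threshold with R882H replicate 1 (0.0194, log2 fold change −1.55) left out, and had −0.54 (0.450) without EV replicate 2 and −0.38 (0.562) without R882H replicate 2. The fatty acid transporter gene Slc27a3 had 0.92 ± 0.49 (adjusted p = 0.139). Acsl1, a main long-chain synthetase, had 26.1 ± 0.822 CPM (EV) and 25.5 ± 1.80 CPM (R882H) (−0.03 ± 0.17, adjusted p = 0.901). The exons of Acss2 and Acsl1 overlap those of another counted gene.

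In mitochondrial beta-oxidation, 25 of 27 genes were tested, 6 rose and 4 fell (median log2 fold change 0.03). Those called were 40% of the tested ones, near the 38.8% of all tested genes. Cpt1a, the carnitine transferase that admits long-chain acyl groups to mitochondria, had 633 and 708 counts in EV and 296 and 282 in R882H, or 121 ± 6.28 CPM (EV) and 49.5 ± 0.0177 CPM (R882H) (−1.28 ± 0.13 on the log2 scale, edgeR adjusted p = 1.42e-09). The short-chain dehydrogenase gene Acads fell (−0.60 ± 0.13, adjusted p = 0.000478), as did the trifunctional enzyme gene Hadha (−0.47 ± 0.13, adjusted p = 0.00553) and the hydratase gene Echs1 (−0.38 ± 0.13, adjusted p = 0.0240), the last named after its values were seen. The isobutyryl-CoA dehydrogenase gene Acad8 (0.77 ± 0.18, adjusted p = 0.000817) and the dienoyl-CoA reductase gene Decr1 (0.72 ± 0.18, adjusted p = 0.00182) rose. Omitting R882H replicate 1 left 3 higher and 2 lower genes, omitting R882H replicate 2 left 2 of each, omitting EV replicate 2 left 3 higher, and DESeq2 gave 2 higher. Hadha lost its call with R882H replicate 1 (0.0732) or R882H replicate 2 (0.0850) left out, and Echs1 with EV replicate 1 (0.0518), R882H replicate 1 (0.138) or R882H replicate 2 (0.197) left out and in DESeq2 (0.0956). The exons of Echs1 overlap another counted gene.

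In peroxisomal oxidation, 22 of 25 genes were tested, 3 rose and 5 fell (median log2 fold change 0.19). Those called were 36.4% of the tested ones, near the 38.8% of all tested genes. The branched-chain oxidase gene Acox3 rose from 20.6 ± 0.0795 CPM (EV) to 59.6 ± 1.54 CPM (R882H) (1.53 ± 0.16 on the log2 scale, edgeR adjusted p = 1.24e-09), and the fatty acyl transporter gene Abcd2 was another of the 3 (1.47 ± 0.23). The transporter gene Abcd3 fell from 54.4 ± 0.692 to 25.7 ± 1.80 CPM (−1.08 ± 0.16, adjusted p = 1.03e-06), with the reductase gene Decr2 (−1.30 ± 0.30), Pex11a (16 and 12 counts in EV, 1 and 3 in R882H), the thiolase gene Acaa1a (−0.61 ± 0.21) and the isomerase gene Ech1 (−0.41 ± 0.14). Omitting R882H replicate 1 left 2 falls, omitting EV replicate 2 or R882H replicate 2 left 3 each, and DESeq2 gave 3. Pex11a lost its call with R882H replicate 1 (0.0714) left out. Acaa1a lost it with EV replicate 2 (0.187), R882H replicate 1 (0.0757) or R882H replicate 2 (0.118) left out and in DESeq2 (0.130). Ech1 lost it, too, with EV replicate 2 (0.115), R882H replicate 1 (0.197) or R882H replicate 2 (0.0927) left out and in DESeq2 (0.0902). Acaa1a, whose exons overlap another counted gene, and Ech1 were named after their values were seen.

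Of 29 genes of PPAR receptors, partners and targets, 11 were tested, 4 fell and none rose (median log2 fold change −0.18). The share called was 36.4%, near the 38.8% of all tested genes (19.3% higher and 19.4% lower). Of the 29 genes, 13 had no counts in any library. Ppara, the receptor that induces the Acot cluster in mouse liver, was among these 13, as were its liver targets Pdk4, Cyp4a10, Cyp4a14, Fabp1 and Fgf21. No count allows up to 3 counts, or 0.502 to 0.550 CPM per library. The receptor gene Ppard had 70 and 94 counts in EV and 55 in each R882H library (−0.64 ± 0.23 on the log2 scale, edgeR adjusted p = 0.0247). Pparg had 11 and 4 counts in EV and none in R882H, and was not tested. With 3 counts over the R882H group Pparg would be 5.25-fold lower, taking the EV counts as exact. The exact 95% interval of its ratio of R882H over EV was 0 to 0.2655, which covers counting error only. Rxra, the shared partner, had 34 and 29 counts in EV and 8 and 3 in R882H (−2.56 ± 0.47, adjusted p = 4.72e-05). The co-repressor gene Ncor1 (−0.42 ± 0.13, adjusted p = 0.00988) and the mitochondrial carrier gene Ucp2 (−0.46 ± 0.15, adjusted p = 0.0128) fell, and the lipase inhibitor gene Angptl4 had 17.8 ± 2.01 CPM (EV) and 21.7 ± 1.93 CPM (R882H) (0.29 ± 0.19, adjusted p = 0.230). The falls numbered 2 without EV replicate 2 and 2 without R882H replicate 1. Ppard lost its call with EV replicate 2 (0.231), R882H replicate 1 (0.121) or R882H replicate 2 (0.0789) left out and in DESeq2 (0.143). Ncor1 lost it with R882H replicate 1 (0.161) or R882H replicate 2 (0.111) left out, and Ucp2 with EV replicate 2 (0.278, log2 fold change −0.19) or R882H replicate 1 (0.230) left out, with −0.69 without EV replicate 1. The exons of Ncor1 and Ucp2 overlap those of another counted gene.

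Of 18 genes that make or break down coenzyme A, the product of the thioesterase reaction, 13 were tested, 2 rose and 1 fell (median log2 fold change 0.08). The share called was 23.1%, under the 38.8% of all tested genes. The synthesis gene Ppcdc rose from 63 and 96 counts in EV to 271 and 202 in R882H (1.5 ± 0.19 on the log2 scale, edgeR adjusted p = 8.70e-08), and the mitochondrial coenzyme A carrier gene Slc25a42 from 4 and 3 to 17 and 19 (adjusted p = 0.00194). The hydrolase gene Nudt8 fell (−1.38 ± 0.35, adjusted p = 0.00171), a call that ended with EV replicate 2 (0.0599) left out, and its exons overlap those of another counted gene. Pank4 had 0.50 ± 0.22 (adjusted p = 0.0712) and passed the threshold with EV replicate 2 (0.0467) or R882H replicate 2 (0.0335) left out, and the peroxisomal hydrolase gene Nudt19 had −0.23 ± 0.13 (adjusted p = 0.178) and overlaps another counted gene.

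**Figure D5:**
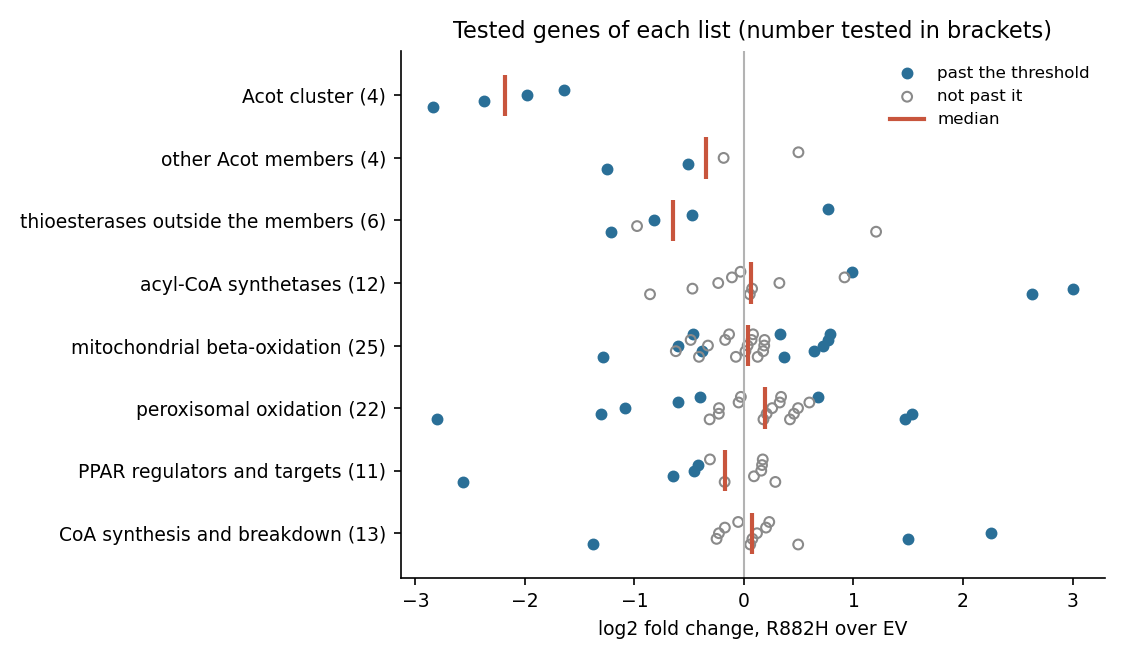
Log2 fold change of R882H over EV for every tested gene of the Acot cluster, the other Acot members and the 6 pathway lists, with filled points for genes past the threshold, open points for the others and a red line at the median. The cluster genes all lie at or under −1.64, while the lists spread to both sides of 0 with medians between −0.65 and 0.19.

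The genes whose pattern over the 4 libraries was most like that of Acot1, by Euclidean distance between centred log2 CPM, were Slc25a15, the mitochondrial ornithine carrier (0.0655), Vamp5, a vesicle protein (0.0823), Eva1b (0.126), the kinase gene Pim1 (0.134) and Ero1l, an oxidase of the endoplasmic reticulum (0.141). Slc25a15 had 1108 and 1114 counts in EV and 386 and 372 in R882H, or 200 ± 4.64 CPM (EV) and 64.9 ± 0.505 CPM (R882H). Eva1b had few counts, 24 and 23 in EV and 7 and 6 in R882H. The genes most like Acot7 were the cysteinyl-tRNA synthetase gene Cars (0.0189), Elp5 (0.0251), Gpaa1 (0.0310), the lipid droplet gene Plin3 (0.0311) and Rnf123 (0.0387). The exons of Elp5 and Rnf123 overlap those of another counted gene. These distances describe 4 libraries and carry no test.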

How the data were processed

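QuantSeq 3′ tag libraries from 4 Hoxb8 samples (2 EV, 2 R882H) were analysed from a table of raw counts per Ensembl gene that the authors deposited. The build was mm10 and the tools HISAT2 2.0.4, featureCounts (Subread 2.0.0), cutadapt 1.14, bcl2fastq 2.17.1.14, limma 3.48.3 and edgeR 3.34.0, per the submitters' processing notes. The sources used here do not give their roles, the annotation or the strand setting. Symbols and 1-based positions came from GENCODE M21 on the mm10 assembly (52489 of 52636 lines matched), promoters from RefSeq on GRCm38.p6.

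Differences were fitted with edgeR 4.0.16 in R 4.3.3 (filterByExpr, TMM, robust glmQLFit, glmQLFTest, Benjamini-Hochberg over 11444 genes, threshold 0.05). Standard errors were taken as |log2 fold change| / √F and understate counting error where a group has few counts. CPM use TMM-scaled library sizes. Intervals are exact and cover counting error only. DESeq2 1.42.0 was an alternative.

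The members and gene lists were chosen with earlier results of these data known. Named were all members, up to 5 tested genes per list with the smallest adjusted p (with up to 2 called genes of the opposite direction), a fixed set (Acot5, Acot6, Acot11, Acot12, Them4, Ppara, Ppard, Pparg, Cpt1a and Acsl1), the 6 nearest tested neighbours and the 5 genes most like Acot1 and Acot7. Some genes these rules name are not reported here. Except for the lineage and sex-linked markers, an overlap is mentioned where a second gene with 10 or more counts shares exon bases. Replicates correlated at 0.986 (EV) and 0.988 (R882H) in log2 CPM, and the chi-square of their counts per degree of freedom was 6.91 and 4.61, so replicates differed by more than sampling noise.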

Additional observations from a re-analysis of the deposited data

How the results depend on the processing

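Over all genes, DESeq2 called 1401 higher genes against 2213, and leaving out 1 library gave 1508 to 2065 higher and 1446 to 2168 lower. Leaving out genes whose exons overlap another gene removed Acot3, Acot4 and Acot8, so that 2 cluster members and 1 other member remained lower; the latter count was also 1 to 2 when a library was left out (1 without R882H replicate 1, where Acot7 missed the threshold). Apart from that, the 8 tested members kept their direction and side of the threshold under the alternatives in which they could be fitted. Without overlapping genes the lists had 0 higher thioesterases, 2 lower PPAR genes, 0 lower coenzyme A genes and 0 higher neighbours. With no low-count filter 2 thioesterases were higher. In DESeq2, 2 mitochondrial genes were higher, 3 peroxisomal genes lower and 1 neighbour lower. Leaving out a library gave 1 to 2 higher thioesterases, 1 to 3 higher and 0 to 1 lower synthetases, 2 to 5 higher and 2 to 5 lower mitochondrial genes, 2 to 6 lower peroxisomal genes, 2 to 4 lower PPAR genes and 0 to 1 lower coenzyme A genes. Signs turned, among genes that were not called, for Acsl1 (0.053 without R882H replicate 2, −0.093 to 0.053 over single omissions), Numb (0.16 without EV replicate 2, 0.02 without R882H replicate 2, lowest −0.62) and Gm26571 (0.033 without R882H replicate 1, lowest −1.39). With the replicate block 2196 genes were higher and 2229 lower, and it ended no call of a member. In the labels, same-numbered libraries share only a number. Their deviations did not correlate (r = −0.00261 across genes), which cannot show whether they were prepared together. Of the single-gene values under alternatives, 715 kept direction and call, 66 lost the call, 6 gained one and these 4 turned sign. Few counts limit Acot4, Acot6, Pparg, Pex11a, Acsbg1, Slc25a42, Heatr4, Rxra, Them4, Gm26571, Eva1b and Hoxb8, among others. Genes without counts can be given only as a limit.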
